A study of Oryza sativa Japonica Group with 31 samples.

Results

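In rice leaf with and without cold, 10 loci that encode large molecular chaperones were examined, out of 55801 loci in the deposited table. They were taken by their locus identifiers and comprise HSP101, 3 HSP90 loci, the HSP90 of the endoplasmic reticulum (GRP94), the HSP70 of the endoplasmic reticulum (BiP1) and 4 cytosolic HSP70 loci. The table gives identifiers without gene names, so the names are those under which the loci were chosen. A RefSeq gene table of assembly ASM3414082v1 held 0 of the 10 identifiers. The chromosome given for a locus is the one written in its identifier.

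Chaperones of these families bind proteins that are unfolded, newly made or aggregated. HSP70 proteins bind and release short exposed stretches of a chain in a cycle driven by ATP. HSP90 proteins act later, on nearly folded clients such as kinases and receptors. HSP101 is a hexameric ATPase that pulls proteins out of aggregates together with HSP70 and is needed for plants to survive severe heat. BiP and GRP94 do the work of HSP70 and HSP90 in the lumen of the endoplasmic reticulum, where secreted and membrane proteins fold, and BiP is a standard marker of the unfolded protein response.

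The plants were Nipponbare, a japonica cultivar, pre-germinated in the dark for 3 days and raised in liquid culture in bottomless PCR plates at 28 °C and 22 °C in days of 12 h light and 12 h dark. On day 13 some plates stayed in these conditions as control and others were moved to 4 °C for 24 h. Of 31 libraries in the series, 4 are RNA-seq, 2 for control and 2 for cold, and they are labelled leaf, while the protocol speaks of RNA from seedlings. Since no locus of the table is paired with a name, the tissue label could not be checked against marker genes.

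The values are FPKM, fragment counts divided by locus length and library size, which allows levels of different loci to be compared. There is 1 column per treatment, so each value is the authors' value for that treatment, with no replicate error and an unknown number of reads behind it. No test could be made, so whether a difference exceeds the variation among replicates is not known, and neighbours in an order of levels may not truly differ. In such bulk samples, fewer cells of a type and less RNA per cell cannot be told apart. Differences are of log2(FPKM + 1), cold minus control, unless a ratio of FPKM is named, and this scale understates the difference of weakly expressed loci.

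Most of the abundant transcripts among the 10 loci were lower in cold. One HSP90 locus was lower by more than an order of magnitude, and the second abundant HSP90 locus and both chaperones of the endoplasmic reticulum were lower by smaller factors. The most abundant of the 10, an HSP70 locus, was 1.31-fold lower, close to the median locus. HSP101, the member most tied to heat, was weakly expressed in both treatments and was listed higher in cold.

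Of the 10 loci, 8 had a lower FPKM in cold than in control and 2 a higher one. With a mean of at least 1 FPKM over both columns required, 9 loci remained. The HSP90 locus LOC_Os04g01740 did not pass. Among the 9, 5 were at least 2-fold lower in cold and 0 at least 2-fold higher. Over all 20876 loci with such a mean, 19.2% were at least 2-fold lower, 12.5% were at least 2-fold higher, and 61.2% had a lower FPKM in cold. Median-of-ratios scaling left 4 members at least 2-fold lower and 11% of all loci, and the share of higher loci among all those past 2-fold went from 39.5% to 62.2%. The median difference of the 9 loci was −1.34, and that of all 20876 loci was −0.27, with quartiles of −0.84 and 0.41. All 5 lower loci were among the 7 whose mean reached 10 FPKM, a level at which 17.6% of 10051 loci were at least 2-fold lower.

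**Figure D1:**
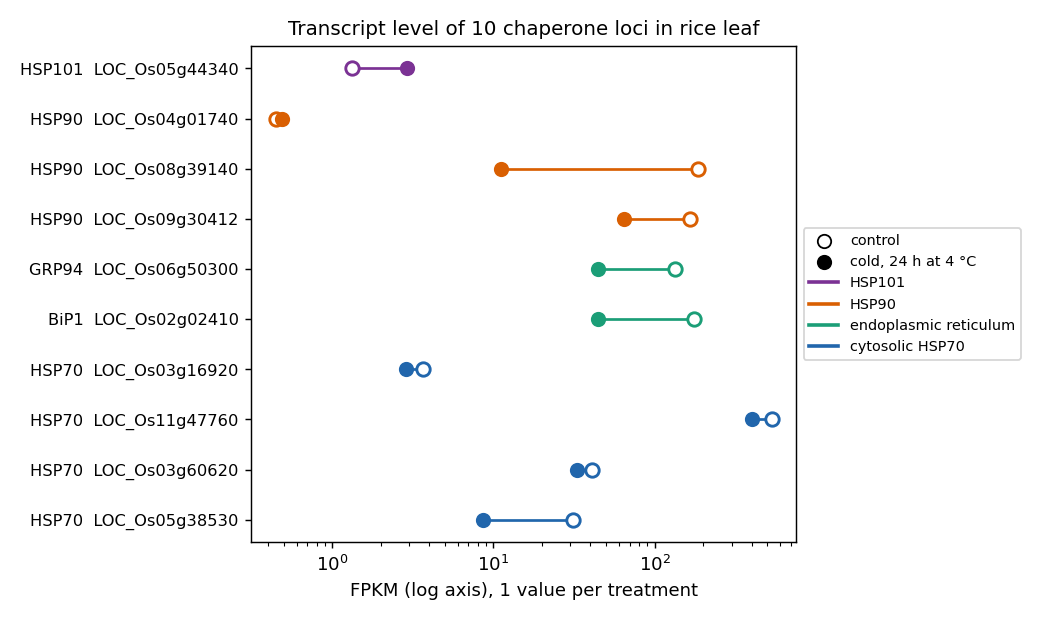
FPKM (log axis) of the 10 chaperone loci in control (open circles) and cold (filled circles), 1 value per treatment and coloured by class. The line of the HSP90 locus LOC_Os08g39140 is the longest, from 187 to 11.1 FPKM, while that of the HSP70 locus LOC_Os11g47760 runs from 532 to 405 FPKM.

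HSP101, LOC_Os05g44340 on chromosome 5, stood at 1.32 FPKM in control against 2.90 FPKM after cold. The cold value was 2.19 times the control value as a ratio, and the difference was 0.75 on the log2(FPKM + 1) scale, short of 2-fold. The 2-fold limit was thus passed or missed depending on the pseudocount. Of the 20876 loci, 83.0% had a lower difference, and the median of the 4289 loci with a mean of 1 to 3 FPKM was −0.40. Under median-of-ratios scaling the difference of HSP101 was 0.97, and the median of all loci was 0.03, no longer below 0. The locus nonetheless remained among the low transcripts of the set, moving from the ninth place in control to the eighth in cold.

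The 3 HSP90 loci differed in level, and the 2 that passed the filter also differed in the size of their decrease. LOC_Os08g39140 on chromosome 8 stood at 187 FPKM in control against 11.1 FPKM after cold, 16.7-fold lower. Its difference of −3.95 was matched or exceeded by only 6 other loci among 20876, and by 3 others among the 3107 loci with a mean of 30 to 100 FPKM, whose median was −0.04. Of all loci, 0.139% were lower by 8-fold or more. In the order of levels over the whole table, it went from place 360 in control to place 8734 in cold.

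LOC_Os09g30412 on chromosome 9 stood at 166 FPKM in control against 65.0 FPKM after cold, 2.56-fold lower, a difference of −1.34. Median-of-ratios scaling brought this difference to −0.998, just short of 2-fold. Control levels of both abundant HSP90 loci were close, with LOC_Os08g39140 at 1.12 times LOC_Os09g30412. In cold LOC_Os09g30412 stood at 5.83 times LOC_Os08g39140. A ratio between loci of the same column is untouched by any factor common to that column, so this change of order holds under any such rescaling. It holds only for LOC_Os09g30412 taken alone. Summed with the nearby locus LOC_Os09g30418, described below, it stood at 282 FPKM in control, already above the 187 FPKM of LOC_Os08g39140. The third HSP90 locus, LOC_Os04g01740 on chromosome 4, stood at 0.448 FPKM in control against 0.484 FPKM after cold. LOC_Os08g39140 stood at 417 times this locus in control and at 23.0 times in cold, ratios that rest on values below 1 FPKM.

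A locus near the HSP90 locus on chromosome 9 was at 0 in the cold column. LOC_Os09g30418, which lies 2 places after LOC_Os09g30412 in the order of identifiers, was listed at 116 FPKM in control and at 0 after cold. It was singled out after its values were seen, and no source used here names it. Of 10019 loci that reached 10 FPKM in control, 3 were listed at 0 in cold. RefSeq lists the HSP90 genes HSP81-2 and HSP81-3 on chromosome 9 with 2 genes between them, but it does not carry the identifiers of the table, so neither could be assigned to a locus. The counting of fragments that match several loci is not described, and whether LOC_Os09g30412 and LOC_Os09g30418 share fragments was not tested. Nor was it tested whether members of the same family share fragments, which a factor common to a column would not remove from their ratios. Summed, these loci stood at 282 FPKM in control against 65.0 FPKM after cold, 4.34-fold lower, against 2.56-fold for LOC_Os09g30412 alone.

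**Figure D2:**
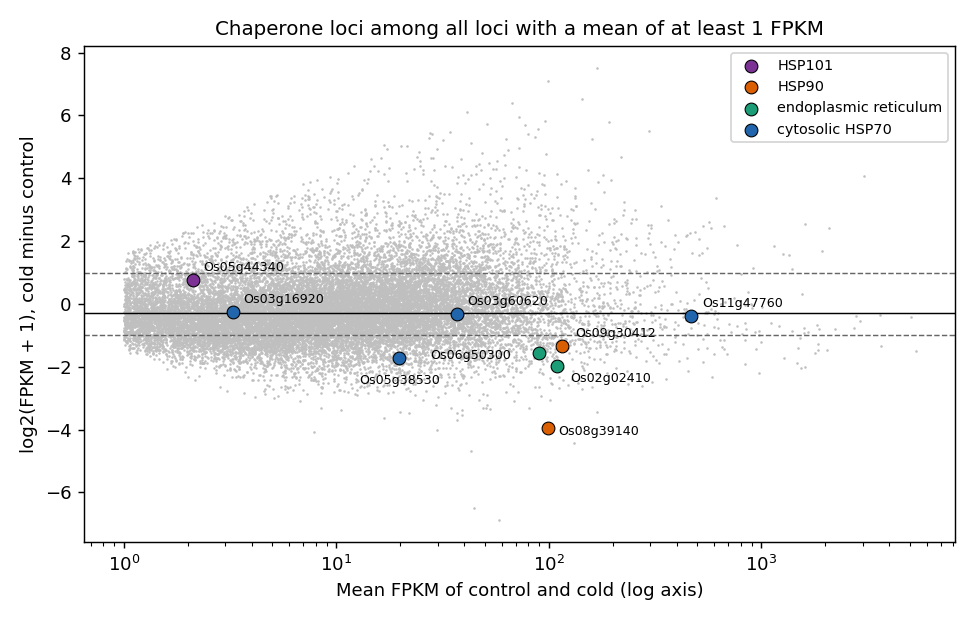
Difference of log2(FPKM + 1), cold minus control, against the mean FPKM of both columns (log axis) for all 20876 loci whose mean reached 1 FPKM (grey) and for the 9 chaperone loci among them (coloured by class). Dashed lines mark 2-fold and the solid line the median of all loci, −0.27; LOC_Os08g39140 lies at −3.95, at the lower edge of the cloud, and 3 HSP70 loci lie close to the median line.

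The 2 chaperones of the endoplasmic reticulum were lower in cold by similar factors. BiP1, LOC_Os02g02410 on chromosome 2, stood at 175 FPKM in control against 44.3 FPKM after cold, 3.96-fold lower. Its difference was −1.96, and 2.32% of the 20876 loci had a lower one. GRP94, LOC_Os06g50300 on chromosome 6, stood at 134 FPKM in control against 44.4 FPKM after cold, 3.02-fold lower. Its difference was −1.57, with 5.63% of loci lower. BiP1 stood at 1.30 times GRP94 in control and at 0.996 times in cold, so the pair was at similar levels in both columns. Their summed level was 310 FPKM in control against 88.7 FPKM after cold, 3.49-fold lower. Among loci with a mean of 100 to 300 FPKM, the class of BiP1, 24.0% were at least 2-fold lower. Among those of 30 to 100 FPKM, the class of GRP94, 17.0% were.

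The 4 cytosolic HSP70 loci spanned a wide range of levels, and 3 of them lay close to the median locus. LOC_Os11g47760 on chromosome 11 was the most abundant of the 10 loci in both treatments, at 532 FPKM in control against 405 FPKM after cold, 1.31-fold lower. It ranked 97 in control and 136 in cold among all loci of the table. LOC_Os03g60620 on chromosome 3 stood at 41.0 FPKM in control against 32.8 FPKM after cold, 1.25-fold lower. LOC_Os03g16920, also on chromosome 3, stood at 3.63 FPKM in control against 2.87 FPKM after cold, 1.26-fold lower.

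These 3 differences, −0.39, −0.31 and −0.26, lay within 0.12 of the median of all loci. Their levels relative to each other were also similar in both columns. LOC_Os11g47760 stood at 12.97 times LOC_Os03g60620 in control and 12.3 times in cold, and at 146 times LOC_Os03g16920 in control and 141 times in cold. LOC_Os11g47760 stayed below its control level under every pseudocount and scaling tried, between −0.39 and −0.05. The direction of the chromosome 3 loci was not stable to the scale set between the columns. Median-of-ratios scaling, which moved the median of all loci by 0.30, gave 0.03 for LOC_Os03g60620 and 0.0054 for LOC_Os03g16920. Quantile normalization, which moved it by 0.17, gave −0.37 and 0.05.

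LOC_Os05g38530 on chromosome 5 departed from the other HSP70 loci. It stood at 31.0 FPKM in control against 8.61 FPKM after cold, 3.60-fold lower, a difference of −1.73, and 4.06% of the 20876 loci had a lower one. In control LOC_Os03g60620 stood at 1.32 times LOC_Os05g38530, and in cold at 3.82 times. The factor of LOC_Os05g38530 lay between those of GRP94 and BiP1.

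These unequal changes altered the makeup of the chaperone set. The summed level of the 10 loci was 1272 FPKM in control against 617 FPKM after cold, 2.06-fold lower. Without LOC_Os11g47760, the sum of the other 9 was 3.48-fold lower, at 740 FPKM in control against 213 FPKM after cold. Folds of summed levels shift with the scale set between the columns and were not recomputed under other scalings. As a part of the whole column, the 10 loci held 0.217% in control and 0.111% in cold. LOC_Os11g47760 alone held 41.8% of the sum in control and 65.6% in cold. The 3 HSP90 loci together held 27.8% in control and 12.4% in cold, and both loci of the endoplasmic reticulum 24.4% and 14.4%. HSP101 held 0.104% in control and 0.469% in cold. The ratio of the HSP70 locus LOC_Os11g47760 to the HSP90 locus LOC_Os08g39140 was 2.85 in control and 36.3 in cold.

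**Figure D3:**
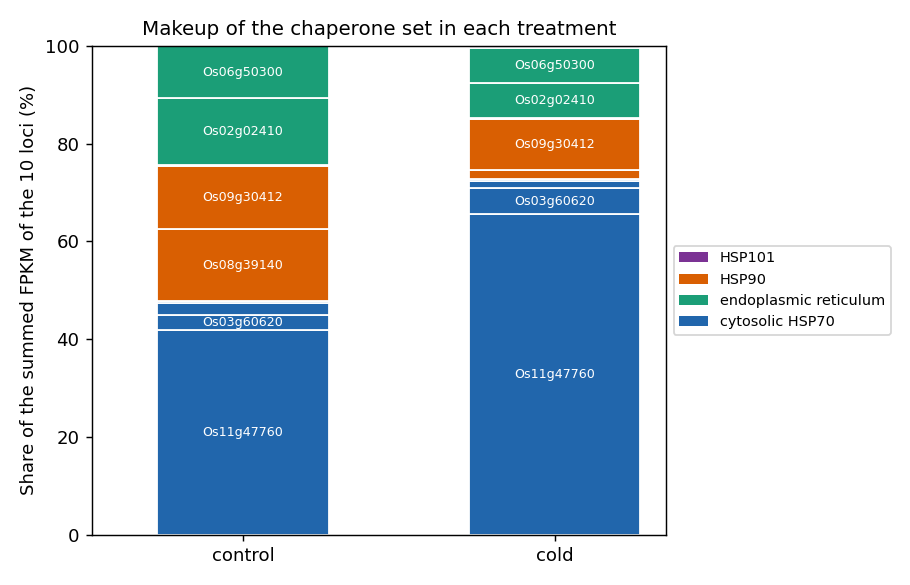
Share of the summed FPKM of the 10 chaperone loci held by each locus, in percent, in control and in cold, stacked and coloured by class. The HSP70 locus LOC_Os11g47760 takes 41.8% in control and 65.6% in cold, LOC_Os08g39140 goes from 14.7% to 1.81%, and the HSP101 share is too small to be seen.

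The order of levels within the set changed mainly through LOC_Os08g39140, which was the second most abundant in control and the sixth in cold. In control the order after LOC_Os11g47760 was LOC_Os08g39140, BiP1, LOC_Os09g30412 and GRP94, all between 134 and 187 FPKM. In cold it was LOC_Os09g30412, GRP94, BiP1 and LOC_Os03g60620, between 32.8 and 65.0 FPKM. The 3 weakest loci were LOC_Os03g16920, HSP101 and LOC_Os04g01740 in both treatments, and LOC_Os03g16920 and HSP101 were at nearly the same level in cold, 2.87 and 2.90 FPKM.

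On the scale of the deposited values, loci within 2 places of the 5 lower members were mostly lower where they differed by 2-fold. Of 13 that passed the filter, 6 were at least 2-fold lower and 1 higher. Around the other 5 members, 2 of 12 were lower and 0 higher, while 19.2% of all filtered loci were lower. Calls past 2-fold also leaned lower over the whole table, with 4003 lower and 2617 higher. Within 2 places of a member, 1 locus that reached 10 FPKM was at least 2-fold higher in cold. This was LOC_Os02g02400, immediately before BiP1 in the order of identifiers, at 164 FPKM in control against 467 FPKM after cold, 2.85-fold higher, while BiP1 was 3.96-fold lower. The locus 2 places before BiP1 was lower with it, at 46.2 FPKM in control against 18.3 FPKM after cold, 2.53-fold. Some neighbours lay close to the limit in either direction. The locus after GRP94 was 1.97-fold higher, and that 2 places before LOC_Os03g60620 1.94-fold higher. The locus 2 places after HSP101 was 1.97-fold lower, and that after BiP1 1.98-fold lower. The loci directly before and after HSP101 were 1.91-fold and 1.92-fold lower. The locus before LOC_Os05g38530 passed the limit at −1.02. Neighbours were not recomputed under other scalings, which could move such loci across the limit.

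The locus after LOC_Os08g39140 was also lower, at 22.3 FPKM in control against 2.19 FPKM after cold, 10.2-fold. The locus 2 places before LOC_Os09g30412 went from 24.0 to 6.53 FPKM, 3.67-fold lower, and the locus after it from 18.9 to 4.11 FPKM, 4.60-fold lower. The locus before LOC_Os05g38530 stood at 256 FPKM in control against 125 FPKM after cold, 2.04-fold lower. Beside both HSP70 loci of chromosome 3, which were themselves only 1.26-fold and 1.25-fold lower, neighbours differed in both directions. The locus 2 places after LOC_Os03g16920 stood at 12.8 FPKM in control against 0.636 FPKM after cold, 20.1-fold lower. The locus 2 places after LOC_Os03g60620 stood at 22.0 FPKM in control against 3.22 FPKM after cold, 6.83-fold lower. Whether fragments were shared between adjacent loci was not tested.

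**Figure D4:**
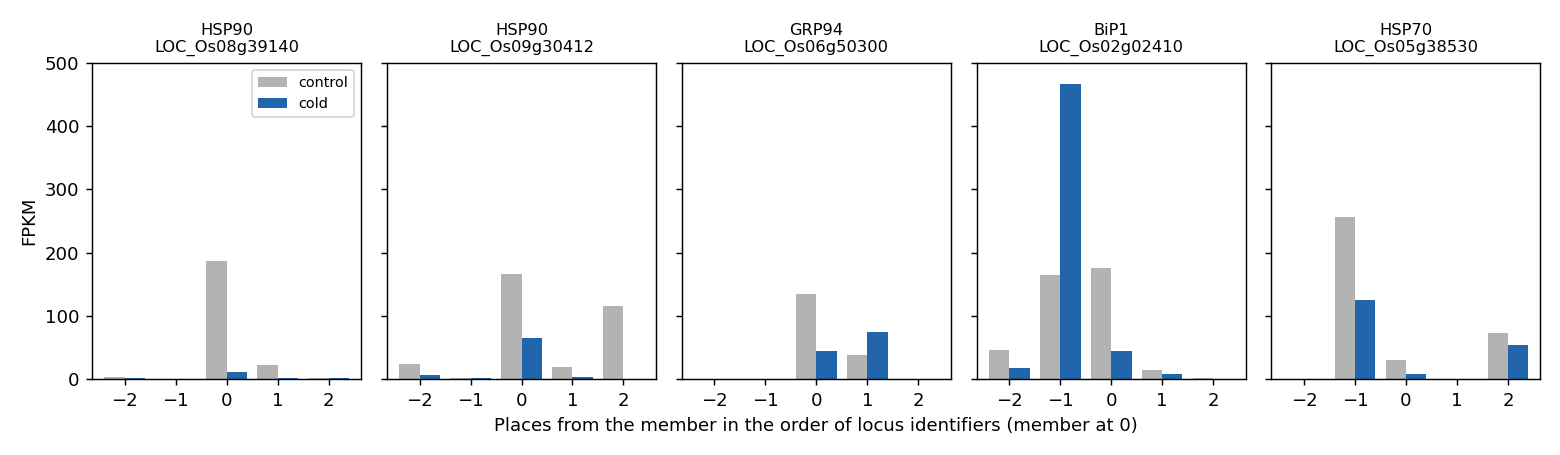
FPKM in control (grey) and cold (blue) of the 5 chaperone loci that were at least 2-fold lower in cold, at place 0, and of the loci 1 and 2 places before and after them in the order of identifiers. The locus before BiP1 stands at 164 FPKM in control against 467 FPKM after cold, and the locus 2 places after LOC_Os09g30412 at 116 FPKM in control and 0 in cold.

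Likeness to a member was measured as the distance between loci on log2(FPKM + 1) over both columns. For HSP101, the member with the highest difference, the nearest locus was LOC_Os04g33870, at a distance of 0.0162, with 1.31 FPKM in control against 2.93 FPKM after cold. In all, 136 loci lay within 0.25 of HSP101. For LOC_Os08g39140, the member with the lowest difference, 0 loci lay within 0.25. The nearest was LOC_Os04g59440, at a distance of 0.433, with 252 FPKM in control against 10.8 FPKM after cold. With only 2 columns this likeness describes levels and nothing further.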

How the data were processed

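RNA was enriched for messenger RNA with oligo(dT) beads, per the labels' protocols. The deposited values are FPKM computed by the authors, in 1 column for control and 1 for cold. The submitters' processing notes name tools for the series without roles, among them the aligner HISAT2 2.1.0, the counter featureCounts 1.6.4 and the trimmer Trimmomatic 0.39. Not given in the sources used here are the genome build, the annotation, strand, and how the 2 libraries of a treatment entered a column. The other 27 libraries were not analysed here.

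Differences used a pseudocount of 1, a mean of at least 1 FPKM (20876 of 55801 loci) and a 2-fold limit. Alternatives were pseudocounts of 0.1, 5 and none, dropping the filter or raising it to 5 FPKM, and 3 scalings (to the same sum, median-of-ratios, quantile). Besides the 10 loci, the text gives the nearest locus of the highest and of the lowest member. It also gives every neighbour within 2 places that reached 10 FPKM in either column and 2-fold. Some neighbours that fell short of 2-fold are given too. Few of these unnamed loci are given by identifier. Members, lists and limits were chosen with earlier results of these data known. A list of further chaperone identifiers was set aside, since no source names them, and no sequence of a member could be matched. The calculation was tested on simulated data. Changes were planted past the 2-fold limit and only in loci above the control level of HSP101, and variation among replicates was not simulated. Calculations ran in Python 3.11.15 with pandas 2.3.3 and numpy 2.4.6.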

Additional observations from a re-analysis of the deposited data

How the results depend on the processing

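Of 101 values recomputed under alternatives, 90 stayed within the limits set (0.5 for the log2 difference of a locus, 0.1 for a median, 1.5-fold for a count) and 11 moved. A change of sign in a locus difference smaller than 1 was not counted as a move. Such changes occurred for LOC_Os03g16920 and LOC_Os03g60620. HSP101 passed 2-fold with a pseudocount of 0.1 (1.07), with none (1.13) and after quantile normalization (1.02), making 1 locus at least 2-fold higher instead of 0. With a pseudocount of 5 its difference was 0.32. LOC_Os09g30412 came to −0.998 under median-of-ratios scaling, leaving 4 loci at least 2-fold lower instead of 5, and to −2.10 when summed with LOC_Os09g30418, an alternative chosen after seeing the data. LOC_Os08g39140 lay between −4.07 and −3.57, BiP1 between −2.003 and −1.62, GRP94 between −1.62 and −1.23, and LOC_Os05g38530 between −1.85 and −1.40, each past 2-fold under every pseudocount and scaling tried. The median of the members was −0.998 under median-of-ratios scaling, −0.867 with no filter and −1.575 with a mean of at least 5 FPKM, the filters changing which loci enter. Over all loci, 2617 passed 2-fold upward and 4003 downward (39.5% upward). With a pseudocount of 5 these were 1663 and 1618, median-of-ratios scaling gave 2285 lower (62.2% upward), quantile normalization gave 51.1% upward, and a mean of at least 5 FPKM left 2605 lower. No paired analysis was possible because the table holds a single column per treatment, and for the same reason no replicate could be left out. Depth is not known, so no counting error can be given for any member, the weakest being LOC_Os03g16920, HSP101 and LOC_Os04g01740.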

Other observations

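Around the 5 members that were at least 2-fold lower in cold, 13 of 20 loci within 2 places in the order of identifiers had a mean of at least 1 FPKM. Of these 13, 6 were at least 2-fold lower and 1 was at least 2-fold higher. Around the other 5 members, 12 of 20 had such a mean, with 2 at least 2-fold lower and 0 higher, against 19.2% lower and 12.5% higher over all loci. On chromosome 9, of the 4 loci around LOC_Os09g30412, 3 were at least 2-fold lower, and the remaining one was 2.02-fold lower as a ratio of FPKM, at 2.66 FPKM in control against 1.32 FPKM after cold. Counts this small describe these columns only, and the difference between both sets of neighbours was not tested.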
